A study of Papio anubis and Macaca fascicularis and Castor canadensis with 48 samples.

Results

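The heat shock protein and chaperone genes measured here were a set of 10 named genes (Hspa8, Hsp90aa1, Hsp90ab1, Hspa5, Hspd1, Hspa9, Hspb1, Dnajb1, Hspa4 and Hsf1). They were taken by name, and 9 of the 10 were analysed, among 16816 genes in all, and Hsp90ab1 was not analysed here. The data were bulk RNA sequencing counts of 48 libraries, in a series whose title concerns gene expression and mammalian longevity. The libraries came from brain of baboon (6), beaver (2) and white-footed mouse (1), from cerebellum of long-tailed macaque (6), from kidney of baboon (6), macaque (5) and bear (1), and from liver of sugar glider (2), beaver (2), baboon (6), macaque (6), bear (1), chipmunk (2), tube-nosed bat (1) and white-footed mouse (1). Every animal was a male, wild-type young adult with no treatment, according to the labels. Baboon, beaver and macaque organs (39 libraries) came from a primate research center and the other 9 libraries from an earlier collection, so that for the other 5 species the species and the collection cannot be told apart. The labels do not say whether replicates were separate animals, and p-values measure the spread between these libraries.

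Chaperones bind unfolded or partly folded proteins and keep them from aggregating while they fold. HSP70 proteins do this in cycles of ATP hydrolysis, started by J-domain cochaperones and reset by nucleotide exchange factors, and they pass some clients on to HSP90 in the cytosol. The endoplasmic reticulum and the mitochondria hold their own HSP70 proteins, and small heat shock proteins hold unfolding clients without ATP. When unfolded protein builds up in the cytosol, the transcription factor HSF1 is released from chaperones and switches on the inducible heat shock genes. A separate response from the endoplasmic reticulum switches on its HSP70.

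The genes stand under the mouse Ensembl identifiers ENSMUSG00000015656 (Hspa8), ENSMUSG00000021270 (Hsp90aa1), ENSMUSG00000020361 (Hspa4), ENSMUSG00000005483 (Dnajb1), ENSMUSG00000026864 (Hspa5), ENSMUSG00000025980 (Hspd1), ENSMUSG00000024359 (Hspa9), ENSMUSG00000004951 (Hspb1) and ENSMUSG00000022556 (Hsf1). All 9 had counts in each of the 48 libraries. HSP70 and HSP90 genes belong to families with close copies, and how reads of 8 species were shared among such copies under mouse identifiers is unstated in the sources used here, so levels between species carry that uncertainty. Levels are given as CPM, the standard depth-scaled count, in which a count is divided by the total count of its library in M. The total was 6.33 to 26.8 M (M, mega), and the 9 genes together held 0.165% to 1.76% of it, with a median of 0.613%. The 10 most counted genes of a library held 4.18% to 45.5% of its total, and at least 26.9% of it in each primate and beaver liver. Tests between organs therefore used factors that even out the bulk of the genes (TMM, trimmed mean of M values). The mean factor was 1.40 in baboon brain and 1.38 in baboon kidney, against 0.517 in baboon liver. The median gene was 1.48 higher on the log2 scale in baboon brain than liver when scaled by the total count alone, and a chaperone gene can be higher in brain than liver in CPM and lower after TMM. Total count scaling as an alternative test was chosen after seeing the data. Baboon replicate 2 stood apart from the other replicates for several of these genes, so the baboon results are given with it and, where a call changed, without it. Organ identity was not checked against marker genes, since the rows carry identifiers without names. In bulk tissue fewer cells of a type and less RNA per cell cannot be told apart.

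**Figure D1:**
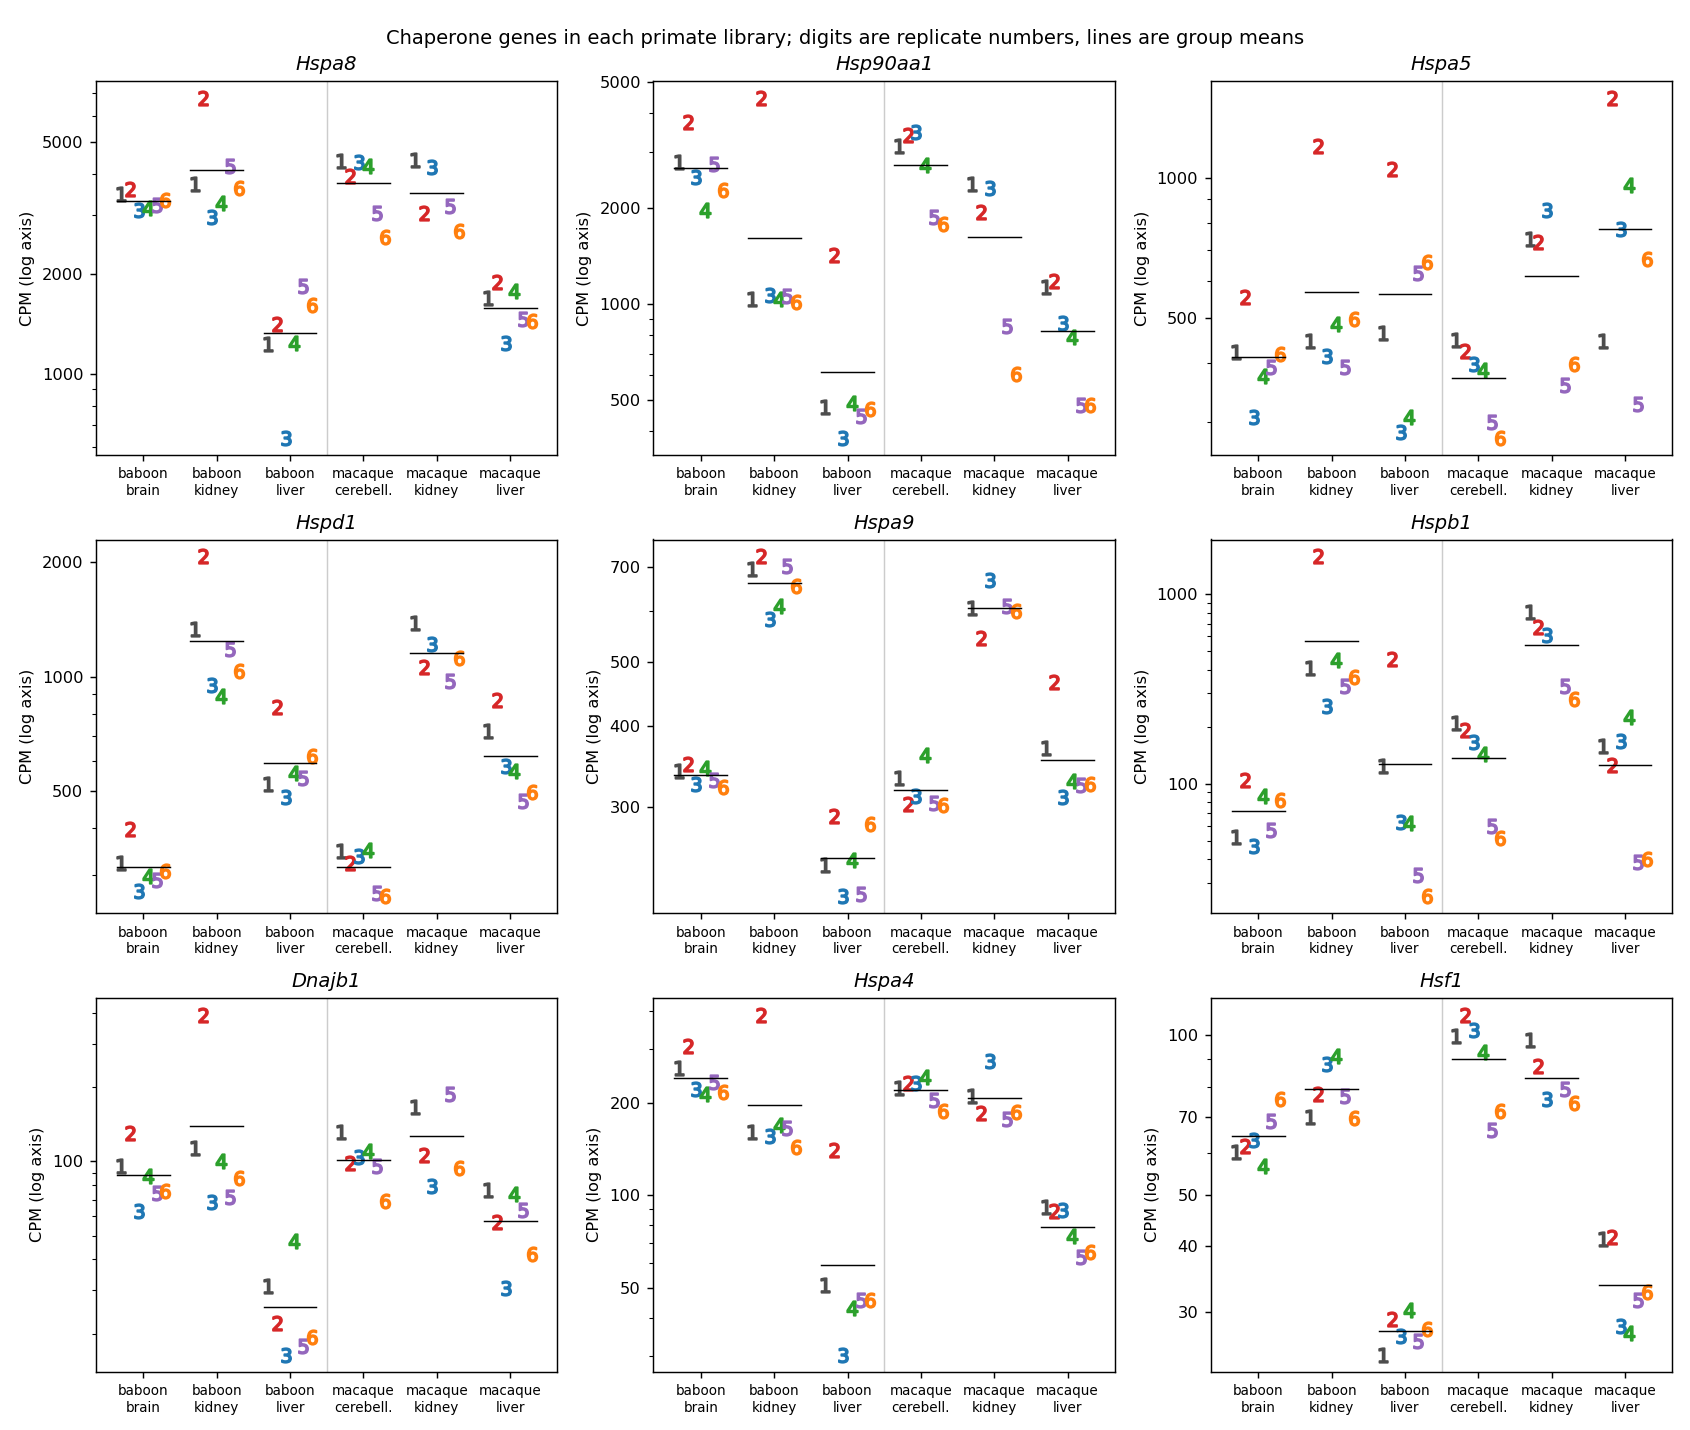
Level of each chaperone gene in every baboon and long-tailed macaque library, in CPM on a log axis; digits are replicate numbers and lines are group means. Baboon replicate 2 was highest in kidney for all genes but Hsf1, and macaque replicates 5 and 6 were the lowest for Hsp90aa1 and Hspb1 in all 3 organs.

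Among the cytosolic chaperones, Hspa8 encodes the constitutive HSP70 of the cytosol (Hsc70), which handles newly made and unfolding proteins in all cells. Its lowest, median and highest levels were 3113, 3280.2 and 3599.6 CPM in baboon brain and 2970.0, 3675 and 6783 CPM in baboon kidney, against 640.3, 1325 and 1834 CPM in baboon liver. Macaque cerebellum had 2588, 4094 and 4383 CPM and macaque kidney (replicates 1, 2, 3, 5 and 6) 4424, 3058, 4215, 3193 and 2699.9 CPM, against 1237, 1572 and 1885 CPM in macaque liver. Every brain, cerebellum and kidney library of these primates lay above every liver of the same species in CPM. After TMM the difference did not pass the test, with a log2 fold change of -0.10 ± 0.21 (SE; edgeR's quasi-likelihood test, adjusted p = 0.672) for baboon brain over liver and -0.19 ± 0.18 (adjusted p = 0.318) for macaque cerebellum over liver. By total count alone these log2 fold changes were 1.32 and 1.25, so the sign of Hspa8 between these organs rested on the scaling.

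Hsp90aa1 encodes the stress-inducible HSP90 of the cytosol, which matures kinases and steroid receptors. It had 1985, 2629 and 3733 CPM (lowest, median and highest) in baboon brain and 1015, 1054 and 4442 CPM in baboon kidney, against 381, 473 and 1426 CPM in baboon liver. In baboon kidney 5 libraries lay between 1015 and 1068 CPM and replicate 2 stood at 4442 CPM, and in baboon liver 5 lay between 381 and 491 CPM with replicate 2 at 1426 CPM. Macaque cerebellum had 1782, 2946 and 3478 CPM and macaque kidney 2383, 1949, 2321, 856 and 603 CPM, against 482, 833 and 1186 CPM in macaque liver. Brain lay above liver in baboon with no overlap in CPM, whereas brain and kidney overlapped through kidney replicate 2. Over all baboon libraries the log2 fold change did not pass the test for brain over kidney (0.70 ± 0.40, adjusted p = 0.119) or for brain over liver (0.67 ± 0.40, adjusted p = 0.128). Without replicate 2 in each organ, an alternative chosen after seeing the data, both passed it, at 1.23 (adjusted p = 1.57e-07) over kidney and 1.02 (adjusted p = 9.70e-07) over liver. Both also passed with all libraries kept and the replicate number as a block, at 0.99 (adjusted p = 0.000396) and 0.87 (adjusted p = 0.000959). Baboon brain was not taken as paired with either organ. In macaque the log2 fold change of cerebellum over kidney was 0.53 ± 0.36 (adjusted p = 0.186) and, with the replicate number as a block, 0.67 (adjusted p = 0.00261).

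Hspa4 encodes an HSP110-type protein that exchanges the nucleotide of HSP70. Its levels were 214, 228 and 306 CPM in baboon brain and 144, 163 and 387 CPM in baboon kidney, against 30.3, 45.7 and 141 CPM in baboon liver. Macaque cerebellum had 189, 228 and 243 CPM and macaque kidney 211, 186, 275, 177 and 186 CPM, against 63.2, 81.1 and 91.8 CPM in liver. The log2 fold change of baboon brain over liver was 0.58 ± 0.32 (adjusted p = 0.101) over all libraries and 0.99 (adjusted p = 7.20e-07) without replicate 2. With all libraries and the replicate number as a block it was 0.78 (adjusted p = 0.000637). In macaque it was 0.03 ± 0.14 for cerebellum over liver (adjusted p = 0.819).

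Dnajb1 encodes the main inducible J-domain cochaperone of cytosolic HSP70. It had 62.8, 81.3 and 130.1 CPM in baboon brain and 68.4, 93.4 and 393 CPM in baboon kidney, against 16.4, 20.8 and 47.4 CPM in baboon liver. After TMM it was higher in baboon kidney than liver by 1.02 ± 0.39 on the log2 scale (adjusted p = 0.0291). That call was lost without kidney replicate 2, which held 393 CPM, when the log2 fold change was 0.35 (adjusted p = 0.225). It was also lost without liver replicate 2, 3, 5 or 6, at adjusted p of 0.0516 to 0.0610. Macaque cerebellum had 69.1, 102 and 131 CPM and macaque kidney 166, 106, 79.3, 188 and 93.7 CPM, against 30.8, 60.1 and 76.5 CPM in macaque liver. The gene was lower in macaque cerebellum than liver after TMM (-0.62 ± 0.24, adjusted p = 0.0230) and higher by total count (0.83, adjusted p = 0.00365). Without cerebellum replicate 6 or liver replicate 1 or 4 the TMM call was lost, at adjusted p of 0.0565 to 0.0591.

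In the endoplasmic reticulum, Hspa5 encodes BiP (GRP78), the HSP70 that folds secreted and membrane proteins and holds the sensors of the unfolded protein response inactive. Its levels were 307, 407 and 554 CPM in baboon brain and 392.3, 466.3 and 1169 CPM in baboon kidney, against 285, 544 and 1041 CPM in baboon liver. Macaque cerebellum had 277, 393 and 448 CPM and macaque kidney 740.5, 727, 851, 360.2 and 398 CPM, against 327, 722 and 1479.8 CPM in macaque liver. The liver libraries spread from the levels of the other organs to well above most of them, and the groups overlapped. After TMM, Hspa5 was lower in each other organ than in liver. The log2 fold change was -1.89 ± 0.32 in baboon brain (adjusted p = 2.02e-05), -1.40 ± 0.31 in baboon kidney (adjusted p = 0.000636), -2.52 ± 0.33 in macaque cerebellum (adjusted p = 1.67e-06) and -1.57 ± 0.34 in macaque kidney (adjusted p = 0.000676). By total count the macaque cerebellum was still lower (-1.06, adjusted p = 0.00348), while baboon brain (-0.45), baboon kidney (0.01) and macaque kidney (-0.34) did not pass the test, and the sign for baboon kidney flipped. Hspa5 was also lower in macaque cerebellum than kidney under both scalings (-0.94 ± 0.33 after TMM, adjusted p = 0.0159).

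In the mitochondria, Hspd1 encodes HSP60, the chaperonin in whose chamber imported matrix proteins fold. It had 272, 303 and 397 CPM in baboon brain and 891, 1111 and 2074 CPM in baboon kidney, against 482, 549 and 834 CPM in baboon liver, and the 3 ranges did not overlap. Macaque cerebellum had 264, 329.7 and 350.0 CPM and macaque kidney 1386, 1063, 1218, 977 and 1118 CPM, against 471, 572 and 871 CPM in macaque liver, again without overlap. Hspd1 was lower in brain than liver by -2.35 ± 0.20 on the log2 scale in baboon (adjusted p = 2.74e-09) and lower in cerebellum than liver by -2.42 ± 0.16 in macaque (adjusted p = 1.51e-10). By total count these values were -0.91 and -0.97, and both still passed the test. Against kidney it was lower by -2.01 ± 0.20 in baboon brain (adjusted p = 2.91e-08) and -2.08 ± 0.17 in macaque cerebellum (adjusted p = 2.38e-09). Between kidney and liver the sign rested on the scaling, with -0.34 ± 0.19 after TMM in baboon (adjusted p = 0.130) and 1.07 by total count (adjusted p = 2.98e-05). With the replicate number as a block, kidney was lower than liver after TMM in baboon (-0.38, adjusted p = 0.0138) and in macaque (-0.31, adjusted p = 0.0385).

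Hspa9 encodes mortalin, the mitochondrial HSP70, which pulls imported proteins into the matrix. Its levels were 322, 335 and 349.8 CPM in baboon brain and 583, 674 and 727 CPM in baboon kidney, against 219, 246 and 290.3 CPM in baboon liver. Macaque cerebellum had 302, 308 and 361 CPM and macaque kidney 607, 546, 669, 609 and 599 CPM, against 311, 327 and 467 CPM in macaque liver. In CPM, kidney lay above the other organs with no overlap in both species. Hspa9 was lower in baboon brain than kidney by -1.003 ± 0.09 on the log2 scale (adjusted p = 1.48e-08) and lower in macaque cerebellum than kidney by -1.13 ± 0.11 (adjusted p = 3.38e-08), under both scalings. Against liver it was lower after TMM, by -1.02 ± 0.09 in baboon brain (adjusted p = 8.84e-09) and -1.60 ± 0.11 in macaque cerebellum (adjusted p = 1.29e-10). By total count the baboon value turned to 0.42 (adjusted p = 0.000218) and the macaque value was -0.15 (adjusted p = 0.169). Macaque kidney was lower than liver after TMM (-0.47 ± 0.11, adjusted p = 0.00120) and higher by total count (0.77, adjusted p = 2.50e-06), and baboon kidney over liver was -0.01 ± 0.09 after TMM (adjusted p = 0.902) and 1.40 by total count (adjusted p = 3.70e-11).

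Hspb1 encodes the small heat shock protein known as HSP27 in human and HSP25 in mouse, which holds unfolding clients and binds the actin cytoskeleton. It had 47.2, 69.7 and 105 CPM in baboon brain and 259, 388 and 1587 CPM in baboon kidney, against 25.4, 62.4 and 455 CPM in baboon liver. Macaque cerebellum had 51.9, 155 and 208 CPM and macaque kidney 804, 671, 613, 328 and 282 CPM, against 38.4, 142 and 224 CPM in macaque liver. Brain and cerebellum lay below kidney with no overlap. The log2 fold change was -3.01 ± 0.66 for baboon brain over kidney (adjusted p = 0.000394) and -2.19 ± 0.49 for macaque cerebellum over kidney (adjusted p = 0.000596), and both passed under total count scaling too. Against liver, Hspb1 was lower after TMM in baboon brain (-2.30 ± 0.64, adjusted p = 0.00282) and macaque cerebellum (-1.33 ± 0.47, adjusted p = 0.0141). By total count these values were -0.82 and 0.12 and neither passed the test. The baboon value was -1.39 without replicate 2, which held 455 CPM in liver, and still passed (adjusted p = 0.00248). For kidney over liver it did not pass in baboon (0.71 ± 0.61, adjusted p = 0.312) or macaque (0.86 ± 0.48, adjusted p = 0.130), and with the replicate number as a block it was higher in kidney in both, by 1.02 (adjusted p = 0.0334) and 1.18 (adjusted p = 0.000163).

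Hsf1 encodes the transcription factor of the heat shock response itself. Its levels were 56.6, 62.7 and 75.7 CPM in baboon brain and 69.9, 77.1 and 91.4 CPM in baboon kidney, against 24.9, 27.5 and 30.3 CPM in baboon liver. Macaque cerebellum had 66.2, 96.3 and 109 CPM and macaque kidney 98.1, 87.3, 75.8, 79.3 and 74.5 CPM, against 27.4, 32.2 and 41.7 CPM in macaque liver. After TMM it was lower in baboon brain than kidney by -0.31 ± 0.08 on the log2 scale (adjusted p = 0.00193), under both scalings. It was also lower in baboon brain than liver by -0.22 ± 0.08 (adjusted p = 0.0186), a call that was lost without replicate 2 (-0.18, adjusted p = 0.0809) and turned to 1.22 by total count (adjusted p = 2.57e-10). In macaque Hsf1 did not pass the test between cerebellum and liver after TMM (-0.03 ± 0.15, adjusted p = 0.863), against 1.42 by total count (adjusted p = 2.82e-08).

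Counted over the 9 genes after TMM, 0 were higher and 5 lower in baboon brain than liver, where 42.4% of all genes tested were higher and 40.0% lower. In macaque cerebellum 0 were higher and 5 lower than in liver, against 42.1% and 39.8% of all genes. Brain against kidney in baboon gave 0 higher and 4 lower genes, against 38.2% and 39.1% of all genes, and cerebellum against kidney in macaque also gave 0 higher and 4 lower, against 37.9% and 37.8%. Kidney against liver gave 1 higher (Dnajb1) and 1 lower (Hspa5) in baboon, against 35.3% and 31.2% of all genes, and 0 higher and 2 lower (Hspa5 and Hspa9) in macaque, against 32.7% and 30.4%. In this fit without a replicate block no chaperone gene was called higher in brain or cerebellum. The counts of genes lower there were near or somewhat above the share of all genes. In kidney against liver the counts of lower genes were below that share. With the replicate number as a block, where the numbers were taken as paired, 1 gene (Hsp90aa1) was higher and 5 lower in macaque cerebellum than kidney, beside 5376 and 5328 of all genes. The block also gave 2 higher (Hspb1 and Dnajb1) and 2 lower (Hspa5 and Hspd1) in baboon kidney than liver, beside 4998 and 4347 of all genes, and 1 higher (Hspb1) and 3 lower (Hspa5, Hspd1 and Hspa9) in macaque kidney than liver, beside 4647 and 4217. The fits within a species tested 13890 genes in baboon and 13927 in macaque, with or without the block. Without baboon replicate 2 in each organ, 2 genes (Hsp90aa1 and Hspa4) were higher and 4 lower in brain than liver, beside 5876 and 5493 of all genes. In brain against kidney 2 (again Hsp90aa1 and Hspa4) were higher and 4 lower, beside 5290 and 5384. In kidney against liver 2 (Hspb1 and Hspa4) were higher and 2 (Hspa5 and Hspd1) lower without replicate 2, beside 4781 and 4259. The log2 fold changes of brain over liver without replicate 2 were -2.29 for Hspd1, -0.97 for Hspa9 and -1.70 for Hspa5, and those of brain over kidney -1.87 for Hspd1, -0.97 for Hspa9, -2.49 for Hspb1 and -0.29 for Hsf1, all still past the threshold. By total count scaling, 6 were higher and 1 lower in baboon brain than liver, 5 and 2 in macaque cerebellum than liver, and 8 and 0 in either kidney than liver. All genes shifted the same way: of the genes called in baboon brain over liver, 81.4% were higher by total count and 51.4% after TMM. For baboon kidney over liver these shares were 90.8% and 53.1%, for macaque cerebellum over liver 80.1% and 51.4%, and for macaque kidney over liver 89.9% and 51.9%. By total count the median gene stood at 1.47, 1.51 and 1.26 on the log2 scale in the same 3 comparisons. Against kidney the scalings made the same 4 calls in each species, and the median gene by total count stood at 0.23 for macaque cerebellum over kidney. There 3 genes that passed under neither scaling changed sign, Hspa8 (-0.11 after TMM and 0.097 by total count), Hspa4 (-0.12 and 0.091) and Hsf1 (-0.084 and 0.12). Of the kidney over liver values that changed sign, those not yet given were -0.029 after TMM and 1.39 by total count for Hsp90aa1 in baboon, and in macaque -0.086 and 1.16 for Hspa8, -0.25 and 0.97 for Hsp90aa1, -0.34 and 0.90 for Hspd1, and -0.10 and 1.15 for Dnajb1.

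**Figure D2:**
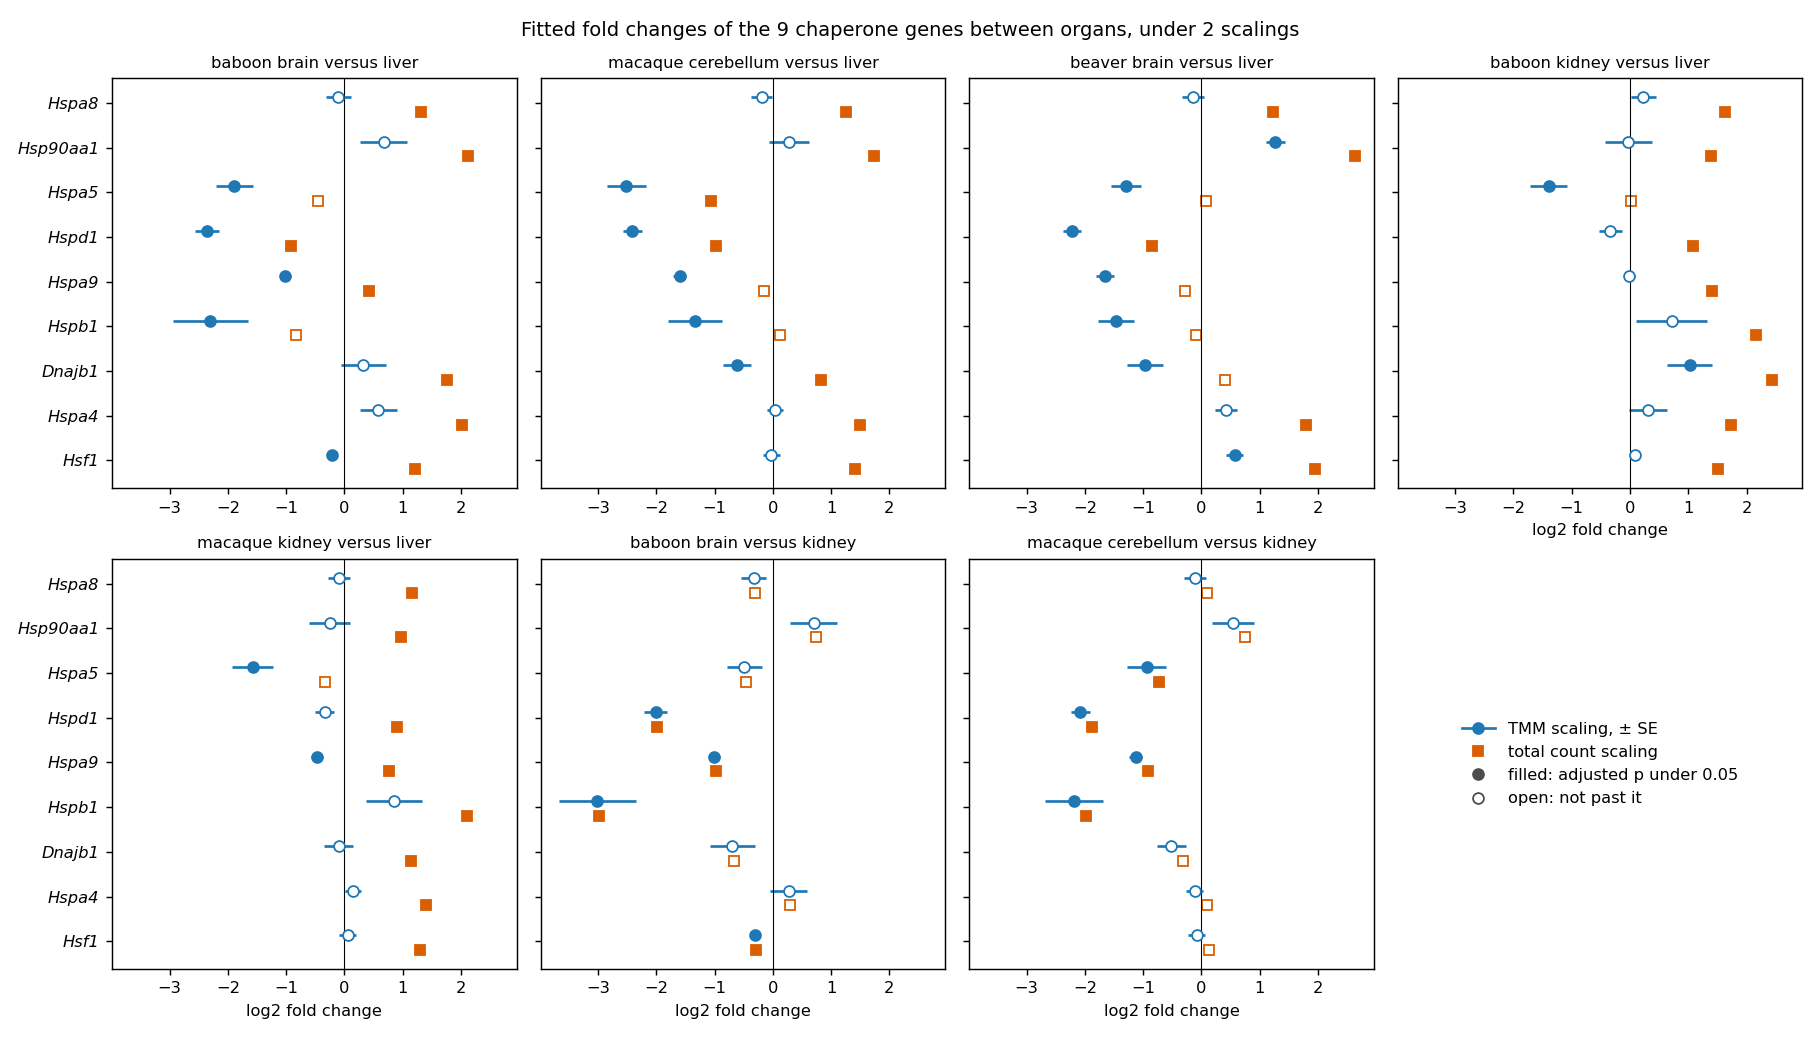
Log2 fold change of the 9 chaperone genes between organs of baboon, long-tailed macaque and beaver, after TMM (circles, with SE) and by total count alone (squares); filled symbols passed an adjusted p under 0.05. Against liver all squares sit right of the circles, and against kidney they nearly coincide in baboon and lie slightly right of the circles in macaque, with Hspd1, Hspa9 and Hspb1 lower in brain and cerebellum.

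The beaver libraries, 2 of each organ, were compared in the same way. Hsp90aa1 had 3214 and 3100.4 CPM in beaver brain, against 476 and 535 CPM in beaver liver, and was higher in brain by 1.27 ± 0.17 on the log2 scale (adjusted p = 0.00241). Hspd1 had 436 and 472 CPM in brain, against 785 and 847 CPM in liver, and was lower in brain by -2.22 ± 0.16 (adjusted p = 0.000358). Hsf1 had 68.7 and 71.6 CPM in brain, against 18.1 and 18.4 CPM in liver, and was higher in brain by 0.57 ± 0.14 (adjusted p = 0.0204). These 3 calls held under both scalings. Where a library was left out, the lone library of its organ was assumed to vary like the others, and the Hsf1 call was lost without either brain library (adjusted p = 0.108 and 0.129). In all, 2 genes were higher and 5 lower in beaver brain, where 35.2% of all genes were higher and 29.3% lower. By total count 4 were higher and 1 lower, and 85.2% of all called genes were higher, against 54.6% after TMM, with the median gene at 1.49. The other genes lower after TMM were Hspa9 (-1.65 ± 0.16, adjusted p = 0.000799), Hspa5 (-1.29 ± 0.25, adjusted p = 0.00860), Hspb1 (-1.46 ± 0.30, adjusted p = 0.0111) and Dnajb1 (-0.97 ± 0.31, adjusted p = 0.0415), none of which passed by total count. Hspa5 and Dnajb1 changed sign there, at 0.08 and 0.41. The Dnajb1 call was lost without either brain library or liver replicate 2 (adjusted p = 0.0924 to 0.213), and the Hspb1 call without brain replicate 1 (adjusted p = 0.0830).

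Replicates of a group differed far more for some chaperone genes than for others, and in baboon the same replicate number stood apart in more than a single organ. Replicate 2 was the highest of the 6 libraries in brain, in kidney and in liver for 6 of the 9 genes, namely Hsp90aa1, Hspa5, Hspd1, Hspa9, Hspb1 and Hspa4. Among the 7531 genes with a mean of at least 5 CPM in each baboon organ, 2.91% had replicate 2 highest in all 3 organs. Replicates 1, 3, 4, 5 and 6 were each highest in all 3 organs for 0 chaperone genes, beside 0.173%, 0.186%, 1.51%, 0.837% and 1.12% of all genes. The labels do not say that replicate 2 of the 3 organs is a single animal.

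In kidney, replicate 2 had 4.26 times the median of the other 5 libraries for Hsp90aa1, 4.31 times for Hspb1, 4.57 times for Dnajb1, 2.61 times for Hspa5, 2.41 times for Hspa4, 2.00 times for Hspd1 and 1.87 times for Hspa8. These 7 ratios lay above the central 95% of all genes for that library, which ran from 0.683 to 1.74. Only 12 of the 7531 genes had a higher ratio in that kidney than Hsp90aa1. In liver the ratio was 7.35 for Hspb1, 3.08 for Hspa4, 3.04 for Hsp90aa1 and 2.24 for Hspa5, all above the 0.569 to 1.98 that held 95% of the genes. There 64 genes had a higher ratio than Hsp90aa1. In brain no chaperone gene left the range of 95% of the genes (0.605 to 1.90), and the largest ratios were 1.85 for Hspb1, 1.72 for Dnajb1 and 1.49 for Hsp90aa1. The median ratio of the 9 genes was 1.38 in brain, 2.41 in kidney and 1.54 in liver, beside 1.03, 0.992 and 0.971 over all genes.

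The cytosolic chaperone genes were not all raised alike in the 3 libraries of replicate 2. Hsp90aa1 and Hspa4 were the highest of their group in each organ, while Dnajb1 and Hspa8 were not. Dnajb1 stood at 393 CPM in kidney replicate 2, above the 68.4 to 113 CPM of the other kidneys, but at 22.2 CPM in liver replicate 2, inside the 16.4 to 47.4 CPM of the other livers. Hspa8 likewise was high in kidney (6783 CPM, against 2970 to 4232 CPM in the others) and inside the range of the others in liver (1413 CPM, against 640.3 to 1834 CPM). Hsf1 was at 0.974, 1.01 and 1.08 times the median of the others in brain, kidney and liver. In depth, replicate 2 was at the edge of its group in each organ. Its total was the highest in brain (16.2 M counts, lowest 14.3 M). It was the lowest in kidney (15.8 M, highest 18.7 M) and in liver (24.1 M, highest 26.4 M). The share of its 10 most counted genes was the lowest in brain (6.86%, highest 11.6%). That share lay inside the range of the others in kidney (13.2%) and liver (35.7%).

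**Figure D3:**
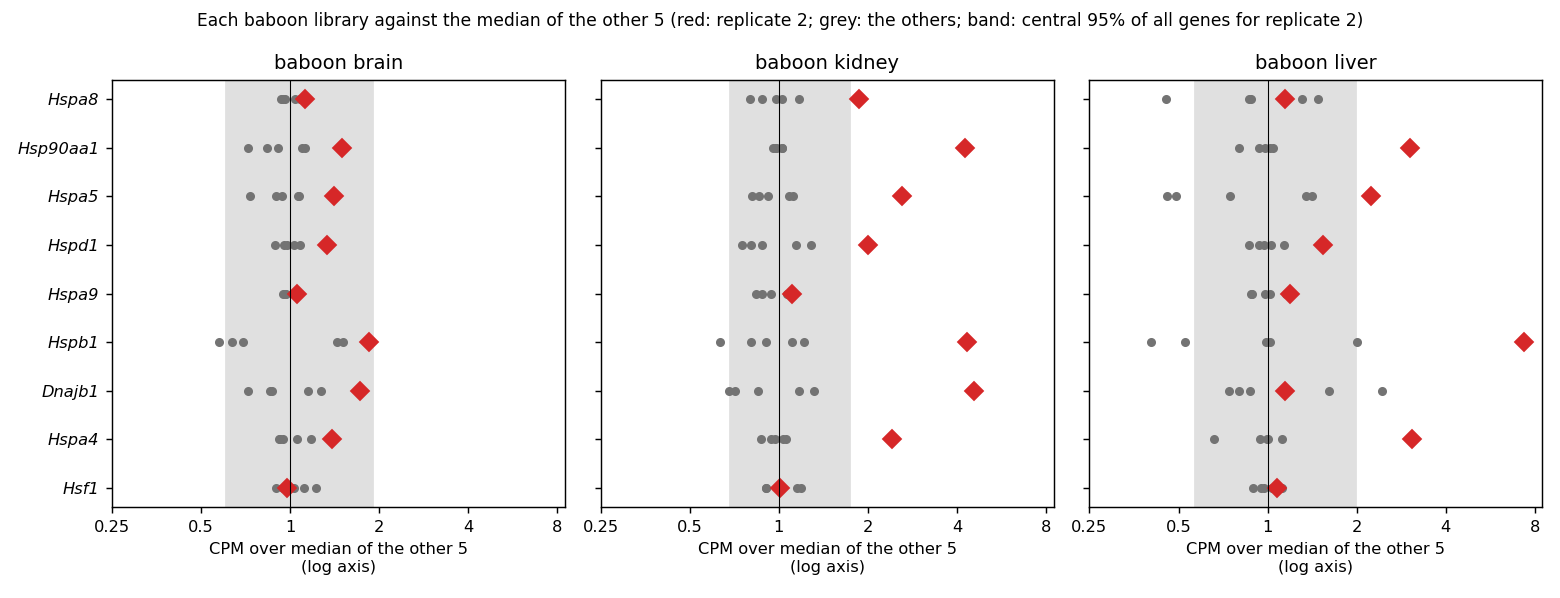
Level of each chaperone gene in a baboon library over the median of the other 5 libraries of that organ, on a log axis; diamonds are replicate 2, dots the other replicates, and the band holds the central 95% of all genes for replicate 2. In kidney 7 diamonds and in liver 4 lie right of the band, in brain none, and Hsf1 lies near 1 in each organ.

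At the low end, baboon replicate 3 was lowest in all 3 organs for Hspa8 and Dnajb1, which 1.13% of genes showed. In macaque, replicate 6 was lowest in all 3 organs for Hsp90aa1, which 1.47% of genes showed. Macaque replicates 5 and 6 held the lowest pair of values of Hsp90aa1 in cerebellum (1885 and 1782 CPM, others 2744 to 3478), kidney (856 and 603 CPM, others 1949 to 2383) and liver (483 and 482 CPM, others 790 to 1186). They also held the lowest pair of Hspb1 in cerebellum (60.1 and 51.9 CPM, others 143 to 208), kidney (328 and 282 CPM, others 613 to 804) and liver (38.4 and 40.1 CPM, others 126 to 224). These macaque values are a description, since the pair was noticed in the data.

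The spread over replicates, as the SD of the log2 level, set the genes apart. For Hspb1 it was 0.92 in baboon kidney and 1.49 in baboon liver, larger than in 99.3% and 99.6% of genes, and 0.87 in macaque cerebellum and 1.10 in macaque liver, larger than in 99.4% and 98.8%. For Hsp90aa1 it was 0.85 in baboon kidney and 0.91 in macaque kidney, larger than in 99.1% and 99.5% of genes. In baboon kidney it was 0.93 for Dnajb1, 0.58 for Hspa5 and 0.53 for Hspa4, larger than in 99.3%, 97.4% and 96.4% of genes. Replicate 2 lay far above the other baboon kidneys for each of these genes, and above the other baboon livers for Hspb1. The spread without replicate 2 is not given here. Hspa9 spread by 0.05 in baboon brain and 0.12 in baboon kidney, with only 0.876% and 22.2% of genes spreading less. Hsf1 in baboon liver spread by 0.10, with 3.78% of genes below it. The standard errors of the fold changes between organs followed this order, at 0.64 for Hspb1 and 0.09 for Hspa9 in baboon brain over liver.

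Baboon and long-tailed macaque, the best replicated species, were compared within kidney and within liver. In kidney none of the 9 genes passed edgeR's test, 0 had an unadjusted p under 0.05, and 30.9% of all genes tested were called. Hsp90aa1 averaged 1612 ± 1386 CPM in baboon kidney (SD, n = 6) and 1622 ± 836 CPM in macaque kidney (n = 5), a log2 fold change of -0.09 ± 0.49 whose SE was larger than the difference. Hspa9 averaged 662 ± 56.2 CPM in baboon and 606 ± 43.8 CPM in macaque kidney (0.06 ± 0.10, adjusted p = 0.662). Without baboon replicate 2, Hspa4 was lower in baboon kidney (-0.45, adjusted p = 0.0207), against -0.14 ± 0.25 (adjusted p = 0.698) with it. All genes called split into 49.5% higher after TMM and 60.2% by total count.

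In liver 2 of the 9 genes were called, both lower in baboon, where 24.8% of all genes were called and 12.5% called lower. Dnajb1 had 31.2, 22.2, 16.4, 47.4, 17.8 and 19.4 CPM in the baboon livers, against 76.5, 56.8, 30.8, 74.0, 63.5 and 42.1 CPM in the macaque livers. It was lower in baboon by -1.03 ± 0.28 on the log2 scale (adjusted p = 0.0175), although baboon replicate 4 reached the macaque range. Hspa9 had 244, 290.3, 219, 249, 220.4 and 282 CPM in the baboon livers, against 370.1, 467, 311, 329, 324 and 326 CPM in the macaque livers. The species did not overlap in CPM, but they did overlap after TMM, the scaling used in the test. It was lower in baboon by -0.38 ± 0.13 (adjusted p = 0.0438), a call near the threshold that was lost on leaving out any of 10 of the 12 livers (all but baboon replicate 2 and macaque replicate 5), at adjusted p of 0.0502 to 0.0834. Without baboon replicate 2, Hsp90aa1 (-0.78, adjusted p = 0.0433) and Hspa4 (-0.78, adjusted p = 0.00556) were also lower in baboon liver. With it, their values were -0.30 ± 0.36 (adjusted p = 0.585) and -0.28 ± 0.32 (adjusted p = 0.569). The liver value of Hspb1 changed sign, at 0.16 ± 0.69 with replicate 2 and -0.91 without it, and passed the test in neither case. Of all called genes in liver, 49.6% were higher in baboon after TMM and 33.4% by total count.

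Whether the baboon to macaque difference itself differed between kidney and liver was tested as an interaction. None of the 9 genes passed edgeR's test, where 5.21% of all genes passed with a positive and 4.80% with a negative value, and 1 had an unadjusted p under 0.05. That gene was Hspa9, with an interaction of 0.47 ± 0.16 on the log2 scale (adjusted p = 0.0737), which DESeq2 called (0.45, adjusted p = 0.0327), as did the fit by total count (0.63, adjusted p = 0.0116). Of all genes called in the interaction, 52.0% were positive after TMM and 72.5% by total count.

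Beaver brain was compared with baboon brain, 2 libraries against 6. Here 2 genes were higher and 1 lower, while 26.6% of all genes were higher and 27.5% lower. Hspa8 had 4620.0 and 4342 CPM in beaver brain, against 3113, 3280.2 and 3599.6 CPM (lowest, median and highest) in baboon brain, a log2 fold change of 0.33 ± 0.11 (adjusted p = 0.0253). Hspd1 had 436 and 472 CPM in beaver brain, against 272, 303 and 397 CPM in baboon brain (0.43 ± 0.13, adjusted p = 0.0165). Hspb1 had 26.5 and 36.3 CPM in beaver brain, against 47.2, 69.7 and 105 CPM in baboon brain (-1.29 ± 0.31, adjusted p = 0.00617). Hspa9 also had no overlap between the groups but was not called (0.10 ± 0.09, adjusted p = 0.349). The share of all genes without overlap is not given here. For the 3 called genes the groups did not overlap either. These calls rested on few beaver libraries: without beaver brain replicate 1 the adjusted p was 0.173 for Hspa8, 0.0623 for Hspd1 and 0.0682 for Hspb1. Without beaver brain replicate 2 it was 0.0622 for Hspa8 and 0.119 for Hspd1, and without baboon brain replicate 3 or 4 it was 0.0583 or 0.0504 for Hspa8. By contrast, Hspa5 (0.43, adjusted p = 0.0814) was called higher as well without baboon replicate 2 (0.52, adjusted p = 0.0183) and by total count (0.53, adjusted p = 0.0476). That made 3 genes higher and 1 lower under each of these settings. Beside them, 3923 of all genes were higher and 4025 lower without replicate 2, and 4253 and 3388 by total count. Of all called genes, 55.7% were higher by total count and 49.3% after TMM. In a fit of all 48 libraries none of the 3 passed, at adjusted p of 0.398 for Hspa8, 0.162 for Hspd1 and 0.200 for Hspb1.

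Liver was the organ shared by all 8 species, with 21 libraries. A test over all species at once called 8 of the 9 genes, where 93.9% of all genes tested were called. The gene not called was Hspa5 (adjusted p = 0.0592), which was called without baboon replicate 2 (adjusted p = 0.0226) and by DESeq2 (adjusted p = 0.00547). Since nearly all genes differed among these livers, the calls do not set the chaperones apart, and the levels themselves are described next.

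The widest range among livers was that of Hspb1. Sugar glider livers had 3.06 and 2.92 CPM, beaver livers 25.8 and 40.7 CPM and chipmunk livers 4.71 and 8.30 CPM. Primate livers ran from 25.4 to 455 CPM in baboon and from 38.4 to 224 CPM in macaque. Bear liver had 108 CPM (95% interval 101 to 116), tube-nosed bat liver 12.7 CPM (95% interval 9.59 to 16.6) and white-footed mouse liver 8.34 CPM (95% interval 6.33 to 10.99). The intervals are exact binomial intervals and cover counting error only, as these species had 1 library per organ. Livers of chipmunk, sugar glider, bat and mouse thus all lay below every primate, beaver and bear liver. How well reads of each species match the mouse gene models was not tested.

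Hsf1 varied less, from 9.59 CPM (95% interval 7.41 to 12.4) in white-footed mouse liver to 48.5 CPM (95% interval 42.3 to 55.6) in bat liver. Scaled by TMM over all 48 libraries, its extremes were instead 27.3 in a beaver liver and 76.1 in bear liver. Beaver livers had 18.1 and 18.4 CPM, against 24.9, 27.5 and 30.3 CPM in baboon livers and 27.4, 32.2 and 41.7 CPM in macaque livers, with no overlap. Hsf1 was lower in beaver than in the mean of the primate livers by -0.83 ± 0.16 on the log2 scale (adjusted p = 0.000406). Hspa9 was higher in beaver livers, at 449 and 489.9 CPM, against 219, 246 and 290.3 CPM in baboon and 311, 327 and 467 CPM in macaque (0.57 ± 0.15, adjusted p = 0.00370), a call lost without beaver liver replicate 2 (adjusted p = 0.0744). These were the calls among the 9 genes, 1 higher and 1 lower, where 25.3% of all genes were higher and 26.5% lower in beaver liver.

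Sugar glider, the marsupial of the series, was set against the equally weighted mean of the 7 placental species. Hspa9 had 690.3 and 636 CPM in the sugar glider livers, above every other liver library (135 to 556 CPM), and was higher by 0.75 ± 0.15 on the log2 scale (adjusted p = 0.000311). That call held in each of the 18 fits that left out a library, and by total count (1.25, adjusted p = 1.63e-06). Hspb1 was the lowest of all livers and lower by -3.96 ± 1.17 (adjusted p = 0.00861), though not past the threshold with either sugar glider library alone (adjusted p = 0.0739 and 0.0741). Hspa8 (519 and 1126 CPM; -0.92 ± 0.31, adjusted p = 0.0177), Hspd1 (397 and 468 CPM; -0.59 ± 0.23, adjusted p = 0.0402) and Hsf1 (30.7 and 28.0 CPM; -0.44 ± 0.16, adjusted p = 0.0291) were also lower after TMM. None of these 3 passed by total count, where they stood at -0.43, -0.09 and 0.06, the last with its sign changed. Without sugar glider replicate 1 the adjusted p was 0.356 for Hspa8, 0.294 for Hspd1 and 0.103 for Hsf1. Without replicate 2 it was 0.0839 for Hspd1 and 0.189 for Hsf1, and Hspd1 also missed the threshold without baboon liver 1, beaver liver 2 or chipmunk liver 2 (adjusted p = 0.0501 to 0.0526). In all, 1 gene was higher and 4 lower in sugar glider liver, where 28.7% of all genes were higher and 22.1% lower. Of all called genes 56.5% were higher after TMM and 73.4% by total count, with the median gene at 0.39.

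**Figure D4:**
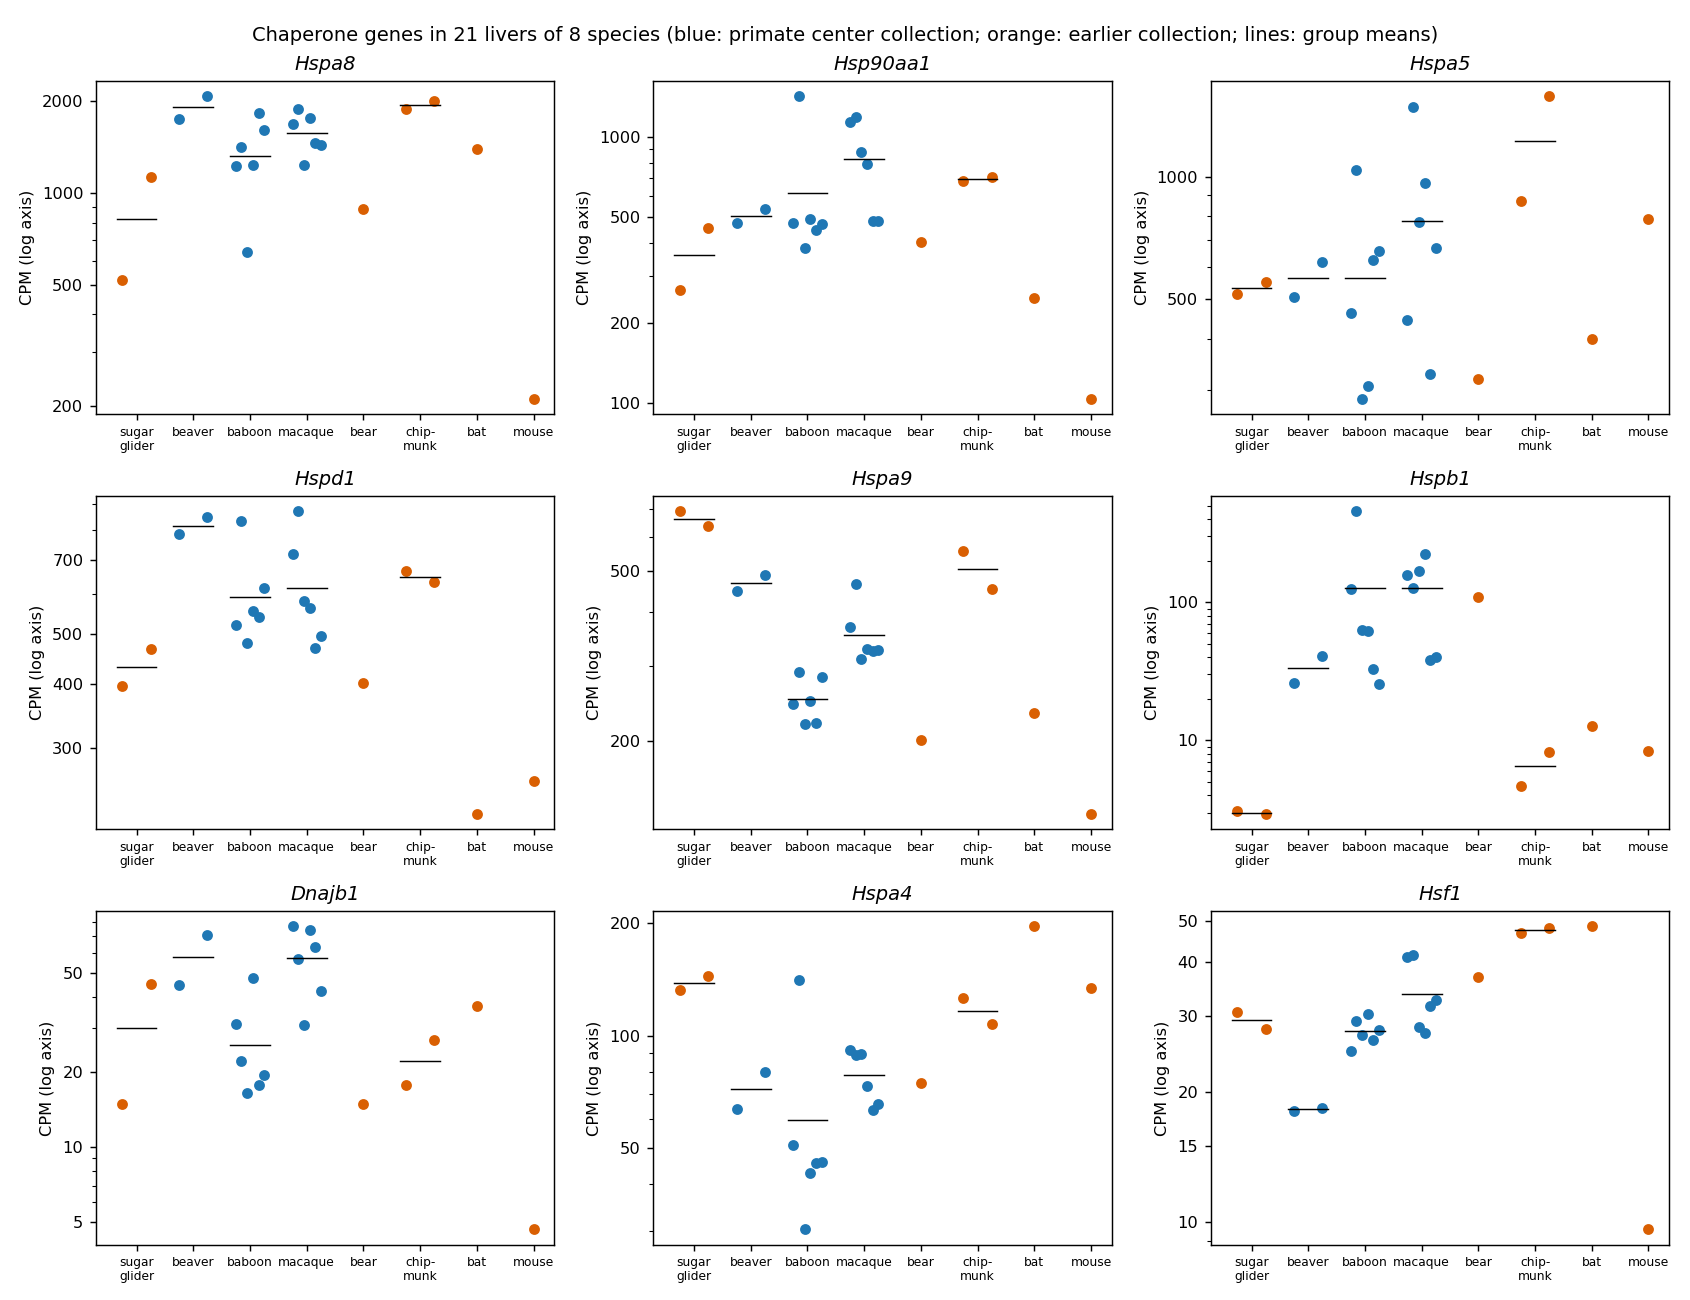
Level of each chaperone gene in the 21 livers of 8 species, in CPM on a log axis, with lines at group means; colours mark the primate center collection and the earlier collection. Hspa9 is highest in sugar glider, Hsf1 in beaver lies below the primates, and Hspb1 spans from 2.92 CPM in sugar glider to 455 CPM in baboon replicate 2.

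Species with 1 library per organ give levels without a test. White-footed mouse brain had 2778 CPM (95% interval 2720.0 to 2836) of Hsp90aa1, within the baboon brain range of 1985 to 3733 CPM, but 389 CPM (95% interval 368 to 412) of Hspa8, against 3113 to 3600 CPM in baboon brain. In CPM it lay below all 8 other brain libraries for 7 of the 9 genes, as did 75.1% of all genes. It lay above the other brains for Hspb1 (126 CPM, against 26.5 to 105 CPM), as did 10.9% of genes. Places in CPM depended on the scaling. Scaled by TMM over all 48 libraries, Hsp90aa1 in this brain stood at 4759, above the baboon brain range of 1350 to 2468. Hspa8 stayed below that of baboon brain (667, against 2157 to 2380), while Hsf1 did not (39.0, against 38.5 to 50.1). White-footed mouse liver lay below all 20 other livers in CPM for 5 genes (Hspa8, Hsp90aa1, Hspa9, Dnajb1 and Hsf1), as did 46.6% of genes. With the TMM scaling only Dnajb1 (14.7) stayed below all other livers. Bear kidney lay below all 11 other kidneys in CPM for 4 genes (Hspa8, Hspa9, Dnajb1 and Hsf1), as did 72.0% of genes. With the TMM scaling none of these genes was lowest in bear kidney. Hsf1 was instead the highest there (84.7, against up to 57.1 in baboon and 67.6 in macaque kidney). Bear kidney and bear liver had 1166 and 402 CPM of Hspd1 and 643 and 108 CPM of Hspb1, so that kidney exceeded liver in CPM as in the primates. Tube-nosed bat liver lay above all other livers in CPM for Hspa4 (196 CPM) and Hsf1 (48.5 CPM), as did 23.9% of genes, and below them all for Hspd1 (222 CPM), as did 5.15%. With the TMM scaling Hspd1 stayed the lowest in bat liver (221). Hspa4 (195, against 423 in white-footed mouse liver) and Hsf1 (48.3, against 76.1 in bear liver) were then not the highest.

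Over the means of the 15 species and organ groups, some chaperone genes had similar patterns of log2(CPM + 1). Dnajb1 and its partner Hspa8 had a Pearson correlation of 0.93 across groups, and among 11424 genes Dnajb1 ranked 18 in likeness to Hspa8 and Hspa8 ranked 16 in likeness to Dnajb1. Hsf1 correlated with Hspa8 at 0.87 (rank 253 in likeness to Hspa8) and with Dnajb1 at 0.80 (rank 1287 in likeness to Dnajb1). Both mitochondrial genes, Hspd1 and Hspa9, had a correlation of 0.83, and Hspa9 ranked 85 in likeness to Hspd1. Hspa5 correlated with Hspd1 at 0.76 and ranked 248 in likeness to it. High values were common, as Hspa9 correlated with Hspa8 at 0.67 and ranked only 3314 in likeness to it. Hsp90aa1 correlated with Hspa5 at -0.38 and with Hspd1 at -0.09. These are descriptions over 15 means that share species, organs and library totals. The genes most like each chaperone carry identifiers without names and are not listed.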

How the data were processed

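RNA sequencing gave 48 libraries in 15 groups of species and organ. The authors deposited 1 table of raw counts, with no normalization and with mouse Ensembl identifiers as rows, per the file headers. The submitters' processing notes name the aligner STAR and the counting tool featureCounts without a version. Neither genome builds, nor the use of strand, nor how reads of 8 species were assigned to mouse genes is stated in the sources used here. Low counts (1 to 20) were even in 94.3% to 99.4% of cases per library, and halving all counts was an alternative. The exact binomial 95% intervals of single libraries used halved counts.

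From the counts, CPM and edgeR 4.0.16 quasi-likelihood F tests (R 4.3.3, TMM factors, filterByExpr defaults, two-sided) were computed here over all genes, with Benjamini-Hochberg adjustment and a threshold of 0.05. SE values were derived from the F statistic. The 3 organs of a species, all 21 livers, or the groups compared shared a fit, in 14 comparisons. DESeq2 1.42.0 was an alternative, as were other scalings, no filter, a replicate block, 1 fit of all libraries and leaving out each library. The tests were checked on simulated data.

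The rule was to name all 9 genes in every comparison. All 9 were tested in each, but between species the text mainly names genes that were called or whose result changed with a setting. The genes and lists were chosen with earlier results of these data known. A wider set of 96 chaperone genes in 10 lists and the cell type markers were written as symbols, and 0 identifiers matched a symbol in the reference table used, so they were not tested. No replicate pair agreed within sampling noise (lowest chi-square per gene 8.23 over 89 pairs), and 0 pairs of libraries were identical.

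Same-numbered replicates were checked for pairing by the correlation of their deviations from the group means, because groups share numbers in the labels. Every pair exceeded 0.1 for kidney and liver in both primates and for cerebellum and kidney in macaque, which were taken as paired. The other pairs of organs did not all exceed it. Over all organs r ran from 0.0712 to 0.429 (median 0.130) in baboon and from 0.0797 to 0.436 (median 0.215) in macaque. In beaver, with 2 libraries an organ, the rule cannot be applied.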

Additional observations from a re-analysis of the deposited data

Results flagged for a closer look

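Of 54 combinations of gene and group with 5 or 6 libraries, 10 held a library far outside the range of the rest, and all 10 were baboon replicate 2. The rule marks about 1 in 20 groups by chance when the values are normally distributed and the groups are independent. The 54 combinations are not independent, since the genes share libraries, and whether CPM values are normally distributed was not tested. The share marked over all genes was not computed, so the 10 of 54 have no measured rate to be set against. In baboon kidney replicate 2, Hspa8 stood at 6783 CPM (others 2970.0 to 4232), Hsp90aa1 at 4442 CPM (others 1015 to 1068) and Hspa4 at 387 CPM (others 144 to 169.8). Dnajb1 stood there at 393 CPM (others 68.4 to 113), Hspb1 at 1587 CPM (others 259 to 448), Hspa5 at 1169 CPM (others 392.3 to 498) and Hspd1 at 2074 CPM (others 891 to 1332). In baboon liver replicate 2, Hsp90aa1 stood at 1426 CPM (others 381 to 491), Hspb1 at 455 CPM (others 25.4 to 124) and Hspa4 at 141 CPM (others 30.3 to 51.0). No combination in baboon brain or in macaque was marked.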

How the results depend on the processing

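Limits: all 9 genes had counts in every library, but some counts were low. Hspb1 had 38 and 35 counts in the sugar glider livers and 69 in chipmunk liver replicate 1. Dnajb1 had 60 counts in each white-footed mouse library. Precision also depended on the spread between replicates, the 2 libraries of beaver, chipmunk and sugar glider, and the single libraries of bear, bat and white-footed mouse. Between brain or kidney and liver, the scaling decided the sign of several genes. Mapping of 8 species to mouse genes was not tested.

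The replicate block, used in full where the numbers pair the samples, gave 4 called chaperone genes for kidney over liver in baboon and 4 in macaque, against 2 in each without it. Where the samples share only a number, the block gave 0.99 for Hsp90aa1 and 0.39 for Hspa4 in baboon brain over kidney and 0.87 and 0.78 over liver, called in all 4 cases, and 16 of 18 baboon and 16 of 16 macaque pairs correlated best with their own number. In macaque cerebellum over kidney it added Hsp90aa1 and Dnajb1 (-0.53, adjusted p = 0.0100). It changed no other call of a chaperone gene than these and those given with the results.

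Total count scaling gave 8 called genes for kidney over liver in baboon and 8 in macaque, 1 in the interaction and 2 in sugar glider liver. It reversed Hspa8 (1.32), Hspa9 (0.42) and Hsf1 (1.22) in baboon brain over liver, and Hsp90aa1 (1.39), Hspa5 (0.012), Hspd1 (1.07) and Hspa9 (1.40) in baboon kidney over liver. In macaque it reversed Hspa8 (1.25), Hspb1 (0.12), Dnajb1 (0.83) and Hsf1 (1.42) in cerebellum over liver, and Hspa8 (1.16), Hsp90aa1 (0.97), Hspd1 (0.90), Hspa9 (0.77) and Dnajb1 (1.15) in kidney over liver. It reversed Hspa8 (1.23), Hspa5 (0.082) and Dnajb1 (0.41) in beaver brain over liver and Hsf1 (0.061) in sugar glider liver. These reversals follow from the lower TMM factors of the livers or, in sugar glider, its higher factor. In macaque cerebellum over kidney it changed the sign of Hspa8 (0.097), Hspa4 (0.091) and Hsf1 (0.12), and the fit of all 48 libraries that of Hsf1 (0.0079), none past the test.

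Values near 0 that did not pass the test changed sign elsewhere. With upper-quartile scaling these were Hsp90aa1 (0.083) and Hspa9 (0.10) in baboon kidney over liver, Hsf1 (0.048) in macaque cerebellum over liver, and Hspa8 (0.035) and Dnajb1 (0.021) in macaque kidney over liver. In 1 fit of all 48 libraries they were Hspa8 (0.036) in baboon brain over liver, Hsp90aa1 (0.028) and Hspa9 (0.047) in baboon kidney over liver, and Hsf1 (0.11) in macaque cerebellum over liver, where DESeq2 gave 0.022. Without baboon replicate 2 in each organ, Hspa9 in baboon kidney over liver was 0.0059. That fit called 4 chaperone genes in baboon kidney over liver, 4 in baboon over macaque liver and 1 in baboon over macaque kidney. With no filter on low counts 1 was called in baboon over macaque liver, and DESeq2 called 1 in the interaction. The fit of all 48 libraries called 3 in beaver brain over liver, 0 in beaver over baboon brain (edgeR, against 3 by DESeq2), and 4969 genes for baboon versus macaque liver, against 2961. The cause of these other changes was not tested. For levels per species and organ, the median of all group means was 346 CPM with totals that leave out the 10 most counted genes, against 251 CPM.

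Leaving out a library moved the number of chaperone genes called from 1 to 3 in baboon kidney over liver, 1 to 4 in baboon over macaque liver, 0 to 1 in baboon over macaque kidney, 4 to 7 in beaver brain over liver, 1 to 4 in beaver over baboon brain, 1 to 2 in beaver over primate livers and 1 to 5 in sugar glider liver. For all genes in beaver brain over liver it gave 5519 to 8529 calls, against 8576. Log2 fold changes that changed sign ran from -0.66 to 0.43 for Hsp90aa1, -0.061 to 0.038 for Hspa9 and -0.0059 to 0.78 for Hspa4 in baboon kidney over liver. They ran from -0.087 to 0.056 for Hsf1 and -0.043 to 0.086 for Hspa4 in macaque cerebellum over liver. In macaque kidney over liver they ran from -0.013 to 0.12 for Hsf1, -0.26 to 0.026 for Dnajb1 and -0.18 to 0.0055 for Hspa8, and in beaver brain over liver from -0.30 to 0.0041 for Hspa8. In macaque cerebellum over kidney they ran from -0.18 to 0.0099 for Hspa4 and -0.14 to 0.0014 for Hsf1. They ran from -0.72 to 0.082 for Hsp90aa1 in baboon over macaque kidney and from -0.91 to 0.41 for Hspb1 in baboon over macaque liver. Halving the counts changed no call of a chaperone gene.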

Other observations

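Beside the primate results, the macaque livers gave Hspa5 at 446, 1480 and 776 CPM in replicates 1 to 3 and at 966, 327 and 668 CPM in replicates 4 to 6. In macaque liver the highest Hspa5, Hspd1 (871 CPM), Hspa9 (467 CPM) and Hspa8 (1885 CPM) all lay in replicate 2, while the highest Dnajb1 (76.5 CPM) and Hspa4 (91.8 CPM) lay in replicate 1. In chipmunk liver, Hspa5 stood at 871 and 1576 CPM in the 2 libraries and Hspb1 at 4.71 and 8.301 CPM. These are values with no test.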
